A study of Sus scrofa with 6 samples.

Results

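Adipokines are signalling proteins that fat cells release, and the genes described here were 6 of these ligands (ADIPOQ, LEP, CFD, RBP4, RETN and NAMPT) and 4 receptors (ADIPOR1, ADIPOR2, LEPR and CDH13) in the back muscle of Laiwu pigs. They were chosen by name, and the rows of the expression table that share the gene ID of each were summed. All 10 members were found among 31908 annotated genes, 9 by the symbol in the table and ADIPOR1 by its gene ID, and all 10 were among the 12834 protein-coding genes tested. Laiwu pigs are a Chinese breed known for much fat within the muscle. Longissimus dorsi (LD) muscle came from 3 pigs with high intramuscular fat (IMF) content, the S-H group (LW63, LW70 and LW119), and 3 pigs with low IMF content, the S-L group (LW82, LW88 and LW90). According to the methods all 6 were castrated males selected for extreme IMF content from a larger set, and each gave 1 library of total RNA depleted of ribosomal RNA, without pooling. The labels give no treatment, batch or pairing of the pigs.

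Adiponectin, encoded by ADIPOQ, is made almost only by fat cells and acts on muscle and liver through ADIPOR1 and ADIPOR2, while CDH13 (T-cadherin) binds its larger forms at the cell surface. Leptin, encoded by LEP, reports the size of the fat stores to the brain through its receptor LEPR. In muscle, fat cells lie between the fibres and make up the visible marbling, so a muscle sample holds RNA of fibres, fat cells, vessels and blood together.

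The values are FPKM, the fragments mapped to a transcript, scaled by its length and by the size of the library, so that levels can be compared between genes per length. ADIPOQ, LEP and RBP4 were higher in S-H, and the other 7 members did not pass the test. Passing meant that limma, a linear model fitted to log2(FPKM + 0.1) of all tested genes, gave p below 0.01 before adjustment together with a change of 1 or more on the log2 scale in either direction. Of the 10 members, 3 passed as higher and 0 as lower in S-H, where 1.36% of all tested genes passed, 1.17% as higher and 0.195% as lower. No member reached an adjusted p below 0.05 in limma, and neither did any other gene, although 4 members and 1049 genes in all (8.17%) were below 0.05 before adjustment. Limma without a variance trend gave 4 genes with an adjusted p below 0.05. Over the other settings tried, this count was 0 to 9, the highest with the top transcript in place of the sum. No member was among these genes. The 3 pigs of S-H all lay above the 3 of S-L for 3 members, where 13.1% of all genes did so. They all lay below for 2 members, where 1.69% of all genes did so, and the groups overlapped for the other 5. The median log2 fold change was 0.38 over the members and 0.21 over all tested genes, and 7 of the 10 members had one above 0, as did 74.1% of all tested genes.

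**Figure D1:**
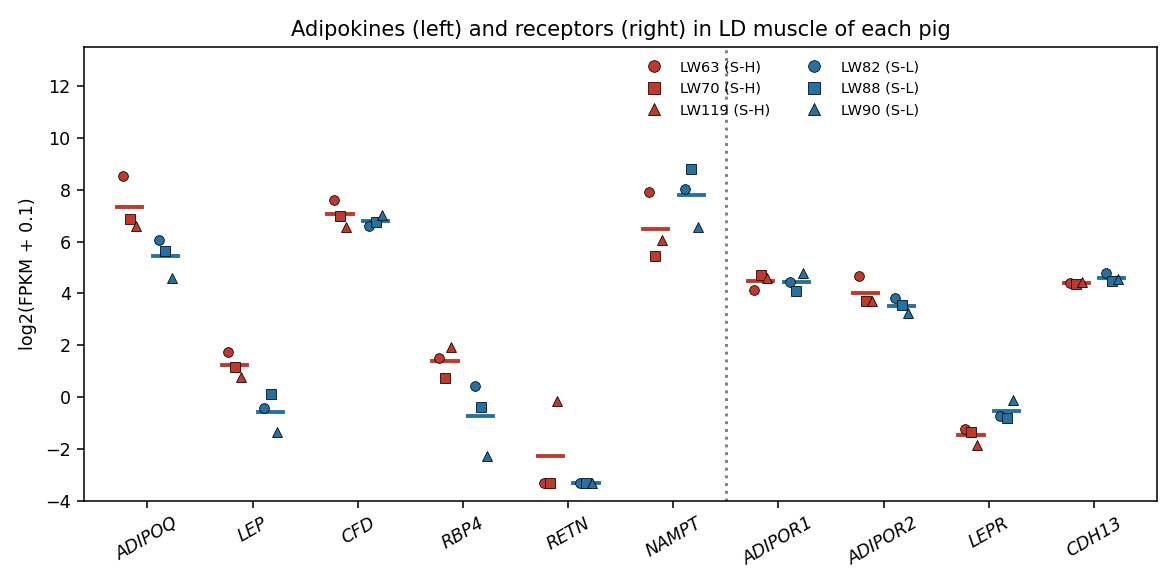
Level of each adipokine (left) and receptor (right) as log2(FPKM + 0.1), with 1 point per pig and a bar at the group mean (red S-H, blue S-L). The red points lie above all blue points for ADIPOQ, LEP and RBP4 and below them for LEPR and CDH13; RETN sits at the floor in 5 pigs.

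In FPKM, the mean over the 6 pigs ordered the members as NAMPT (192), CFD (125), ADIPOQ (120), CDH13 (22.7), ADIPOR1 (22.1), ADIPOR2 (14.3), RBP4 (1.67), LEP (1.48), LEPR (0.431) and RETN (0.134). The strongly expressed ligands NAMPT, CFD and ADIPOQ therefore stood at the top and leptin, its receptor and resistin at the bottom. Among neighbours in this order, the ranges over the pigs were apart only for ADIPOR2 and RBP4. NAMPT lay above CFD in 3 of 6 pigs, CFD above ADIPOQ in 4 of 6, CDH13 above ADIPOR1 in 3 of 6 and RBP4 above LEP in 2 of 6.

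ADIPOQ (ENSSSCG00000039103, chromosome 13, 124633684 to 124646648 in Sscrofa11.1) encodes adiponectin, the most specific fat cell product among the members. It was at 366 FPKM in LW63, 117 in LW70 and 96.3 in LW119, against 67.2 in LW82, 49.4 in LW88 and 23.9 in LW90. The groups did not overlap, and LW63 stood far above the rest. The mean ± SD over 3 pigs was 193 ± 150 FPKM in S-H against 46.8 ± 21.7 in S-L, a log2 fold change of 1.90 (SE 0.52, 3.73-fold), which passed (limma, adjusted p = 0.538). In bulk muscle, fewer fat cells and less RNA per fat cell cannot be told apart. Without LW63 the log2 fold change was 1.30 and no longer passed, and without LW90 it was 1.48 and no longer passed.

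LEP (chromosome 18, 20106868 to 20123447) encodes leptin and was expressed at a far lower level. Its level was 3.23 FPKM in LW63, 2.14 in LW70 and 1.60 in LW119, and 0.637 in LW82, 0.984 in LW88 and 0.287 in LW90. The groups did not overlap, with LW63 the highest and LW90 the lowest pig, as for ADIPOQ. The mean ± SD over 3 pigs was 2.33 ± 0.831 FPKM in S-H against 0.636 ± 0.348 in S-L, and the log2 fold change of 1.79 (SE 0.43, 3.45-fold) passed (limma, adjusted p = 0.515). It no longer passed without LW63, at a log2 fold change of 1.53. The ratio of ADIPOQ to LEP in FPKM overlapped between the groups, at 54.9 to 113 in S-H and 50.2 to 106 in S-L.

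RBP4 (chromosome 14, 105036770 to 105044765) encodes the carrier of retinol in blood, which liver and fat cells make. It was at 2.75 FPKM in LW63, 1.58 in LW70 and 3.67 in LW119, against 1.24 in LW82, 0.671 in LW88 and 0.104 in LW90. Here LW119, not LW63, was the highest pig, the groups did not overlap, and the highest pig was 35.4-fold above the lowest. The mean ± SD over 3 pigs was 2.67 ± 1.05 FPKM in S-H against 0.673 ± 0.570 in S-L, and the log2 fold change of 2.14 (SE 0.62, 4.41-fold) passed (limma, adjusted p = 0.547). RBP4 no longer passed without LW63 (log2 fold change 2.08), without LW119 (1.88) or without LW90 (1.37).

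For each of these 3 genes the exact two-sided permutation test over the pigs gave p = 0.10, the smallest that 3 pigs against 3 allow. When the libraries were scaled by median-ratio size factors, which moved the median of all genes from 0.21 to 0.01 on the log2 scale, the log2 fold changes were 1.68 for ADIPOQ, 1.60 for LEP and 1.97 for RBP4. All 3 passed there as well. Under quantile normalization ADIPOQ did not pass, at a log2 fold change of 1.72.

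The other 3 ligands did not pass. CFD (chromosome 2, 77509795 to 77511974) encodes adipsin, the complement factor D that fat cells secrete in large amounts. It was at 193 FPKM in LW63, 127 in LW70 and 95.7 in LW119, and at 97.1 in LW82, 107 in LW88 and 130 in LW90. The groups overlapped and the lowest pig was an S-H pig, with a log2 fold change of 0.26 (SE 0.30, limma adjusted p = 0.799). The ratio of ADIPOQ to CFD in FPKM was 1.89 in LW63, 0.927 in LW70 and 1.01 in LW119, against 0.692 in LW82, 0.460 in LW88 and 0.184 in LW90. By an exact two-sided permutation test this ratio, which did not overlap between the groups, had p = 0.10.

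NAMPT (chromosome 9, 106119899 to 106294587) encodes visfatin, which inside cells is the enzyme that salvages nicotinamide for NAD and which most tissues express. Its level was 243 FPKM in LW63, 43.6 in LW70 and 67.4 in LW119, against 263 in LW82, 443 in LW88 and 94.6 in LW90. The groups overlapped through LW63, which was high, and LW90, which was low. The log2 fold change was −1.31 (SE 0.67, limma adjusted p = 0.619). Without LW63 it was −2.04 and passed as lower in S-H.

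RETN (chromosome 2, 71484169 to 71485616) encodes resistin, a product of fat cells in mice and of monocytes and other myeloid cells in humans. It was listed at 0.807 FPKM in LW119 and at 0 in the other 5 pigs, so no fold is given. LW119 was also the highest pig for the neutrophil markers. S100A8, a calcium-binding protein of neutrophils and monocytes, was at 9.94 FPKM in LW119 against at most 0.448 in the others. The summed level of the 3 neutrophil markers in the table (of 5 listed, with S100A9 and CXCR2 not in the table) was 2.49 to 22.9 FPKM in S-H and 0.750 to 1.63 in S-L, with none of the 3 at 0 in every pig. S100A12 of this list passed as higher in S-H, at 3.70, 2.35 and 12.2 FPKM against 0.292, 1.07 and 0.897. The summed level of the 8 macrophage or monocyte markers was also highest in LW119, in a range of 26.4 to 73.4 FPKM in S-H and 29.9 to 46.1 in S-L. Of these markers C1QA went the other way, with its highest level in LW63 and a higher level in LW88 than in LW119. The 6 tested fibro-adipogenic progenitor markers had their highest mean log2 level in LW119, at 5.61. By summed level, however, the 7 progenitor markers in the table were highest in LW63, at 1423 FPKM against 1111 in LW119. The part of any of these cells in the RETN value was not tested.

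**Figure D2:**
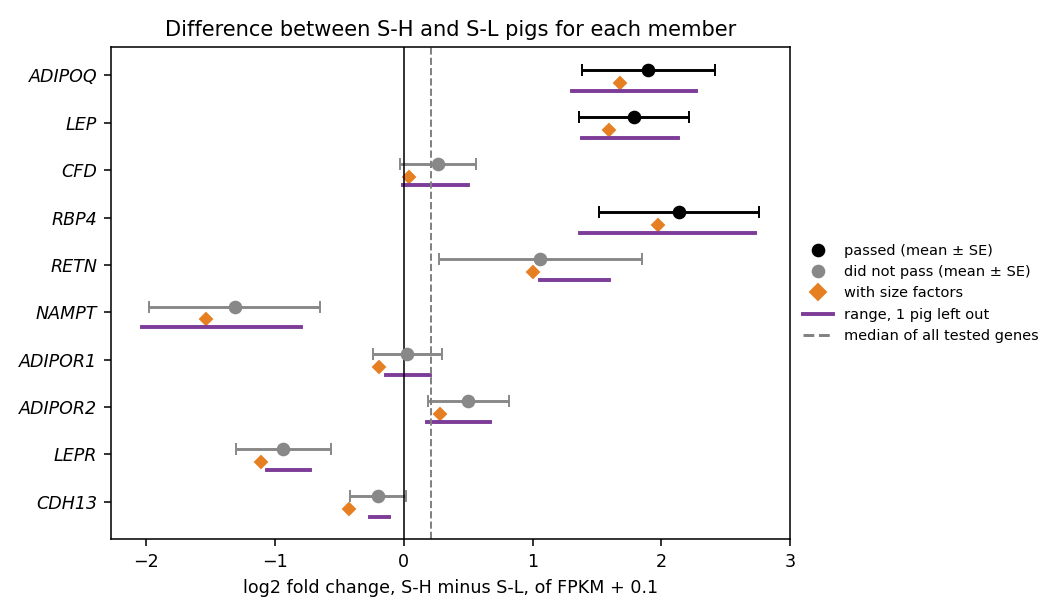
Log2 fold change of S-H against S-L for each member, with its standard error from limma and the range when each pig was left out in turn. RETN was not tested without LW119, the only pig with a level above 0, so its range does not cover that case. ADIPOQ, LEP and RBP4 lie at 1.90, 1.79 and 2.14, NAMPT at −1.31 and LEPR at −0.94, the dashed line marks the median of all tested genes at 0.21, diamonds give the value under size factors, and the RETN value rests on 1 pig.

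Among the receptors, none passed. ADIPOR1 (ENSSSCG00000010931, chromosome 10, 24868040 to 24931711), the adiponectin receptor that predominates in muscle, was at 17.2 FPKM in LW63, 25.8 in LW70 and 24.0 in LW119, and at 21.4 in LW82, 17.2 in LW88 and 27.3 in LW90. Both groups covered the same range, and the log2 fold change was 0.03 (SE 0.27, limma adjusted p = 0.983), with −0.19 under size factors. The rows of ADIPOR1 were deposited in TPM and converted to FPKM, and unconverted they gave 0.16. Some transcript models of this gene ID reach beyond the RefSeq locus, and those that overlap it summed to 17.2 to 25.8 FPKM in S-H and 17.2 to 27.3 in S-L. ADIPOR2 (chromosome 5, 68755811 to 68807235), the receptor better known from liver, was at 25.4, 12.9 and 13.0 FPKM in LW63, LW70 and LW119 and at 13.9, 11.5 and 9.28 in LW82, LW88 and LW90. Only LW63 stood above the others, and the log2 fold change was 0.50 (SE 0.31, limma adjusted p = 0.662), or 0.18 without LW63.

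CDH13 (chromosome 6, 4808255 to 5832188) varied the least of all members, with the highest pig 1.33-fold above the lowest. It was at 20.9 FPKM in LW63, 20.5 in LW70 and 21.9 in LW119, against 27.3 in LW82, 22.3 in LW88 and 23.4 in LW90. All S-H pigs were below all S-L pigs by a small margin in FPKM, with a log2 fold change of −0.20 (SE 0.22, limma adjusted p = 0.792). This fold change was −0.07 on TPM and −0.42 under size factors, so it depended on how the libraries were scaled. The share of CDH13 in the summed FPKM of the 3 adiponectin receptors was 34.9 ± 2.18% in S-H against 42.1 ± 2.68% in S-L (mean ± SD over 3 pigs) and did not overlap (p = 0.10 by exact permutation, two-sided). The sum itself overlapped, at 58.9 to 63.5 FPKM in S-H and 51.1 to 62.7 in S-L.

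LEPR (chromosome 6, 146798979 to 146896108), the leptin receptor, was at 0.324 FPKM in LW63, 0.287 in LW70 and 0.178 in LW119, against 0.507 in LW82, 0.476 in LW88 and 0.812 in LW90. Here S-H was below S-L in every pig, the opposite order to that of its ligand. The log2 fold change of −0.94 (SE 0.37, limma adjusted p = 0.592) did not pass, and at levels this low the pseudocount of 0.1 makes it smaller than the ratio of the means. The ratio of LEP to LEPR in FPKM was 9.98 in LW63, 7.45 in LW70 and 9.01 in LW119, and 1.25 in LW82, 2.07 in LW88 and 0.354 in LW90. The lowest S-H ratio was thus well above the highest S-L ratio. This follows from the opposite orders of LEP and LEPR, so a test of the ratio adds nothing to them.

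Transcripts showed which products of a gene carried its level. The table held 37 transcripts of the members, of which 25 were tested and 2 passed, ADIPOQ-201 and LEP-201, where 1.25% of all 40336 tested transcripts passed and 0.0843% had an adjusted p below 0.05 in limma. ADIPOQ-202 carried 56.7 to 71.6% of ADIPOQ and ADIPOQ-201 27.8 to 42.0%, and both were higher in every S-H pig. ADIPOQ-201 had a log2 fold change of 2.02 (SE 0.49, limma adjusted p = 0.624) and ADIPOQ-202 one of 1.82 (SE 0.67, limma adjusted p = 0.848), which did not pass. LEP, CFD and RETN each had a single transcript. RBP4-201 carried at least 90.0% of RBP4 in 5 pigs and was listed at 0 in LW90, where the remaining signal lay on RBP4-202.

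The spread of NAMPT between pigs lay in a pair of transcripts, NAMPT-203 and NAMPT-204. Their summed level was 208 FPKM in LW63, 2.14 in LW70 and 41.1 in LW119, against 226 in LW82, 326 in LW88 and 68.3 in LW90. The other NAMPT transcripts together were at 26.3 to 41.5 FPKM in S-H and 26.4 to 117 in S-L. NAMPT-203 made up between 0.132 and 71.2% of the gene and NAMPT-204 between 0.934 and 73.4%, and neither followed the groups. NAMPT-206, a minor transcript, was at 3.67, 5.38 and 4.25 FPKM in S-H and 6.92, 7.97 and 8.12 in S-L, so that the groups did not overlap, and did not pass (log2 fold change −0.79, SE 0.26, limma adjusted p = 0.848). NAMPT-202 did not overlap either, at 0.570, 0.286 and 0 FPKM in S-H and 0.701, 0.857 and 0.964 in S-L. It did not pass (log2 fold change −1.66, SE 0.74, limma adjusted p = 0.848). The share of all tested transcripts without overlap was not counted.

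Receptor transcripts also shifted in single pigs. The ADIPOR1 transcript ENSSSCT00000011962 held 94.0 to 99.7% of the gene in 5 pigs and 26.3% in LW90, where ENSSSCT00000081070 held 72.5% against at most 1.78% elsewhere. LEPR was listed on LEPR-203 alone in LW119, LW88 and LW90 and on LEPR-201 alone in LW63 and LW82, while LEPR-201 held 67.8% in LW70. CDH13 was divided between CDH13-201 (44.1 to 61.9%) and CDH13-206 (33.8 to 45.3%) in all pigs. An assembled transcript, TCONS_00203718, held 5.35 to 41.8% of ADIPOR2. How fragments shared by overlapping transcripts were divided is decided by the quantification, so these shares are less certain than the gene sums.

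**Figure D3:**
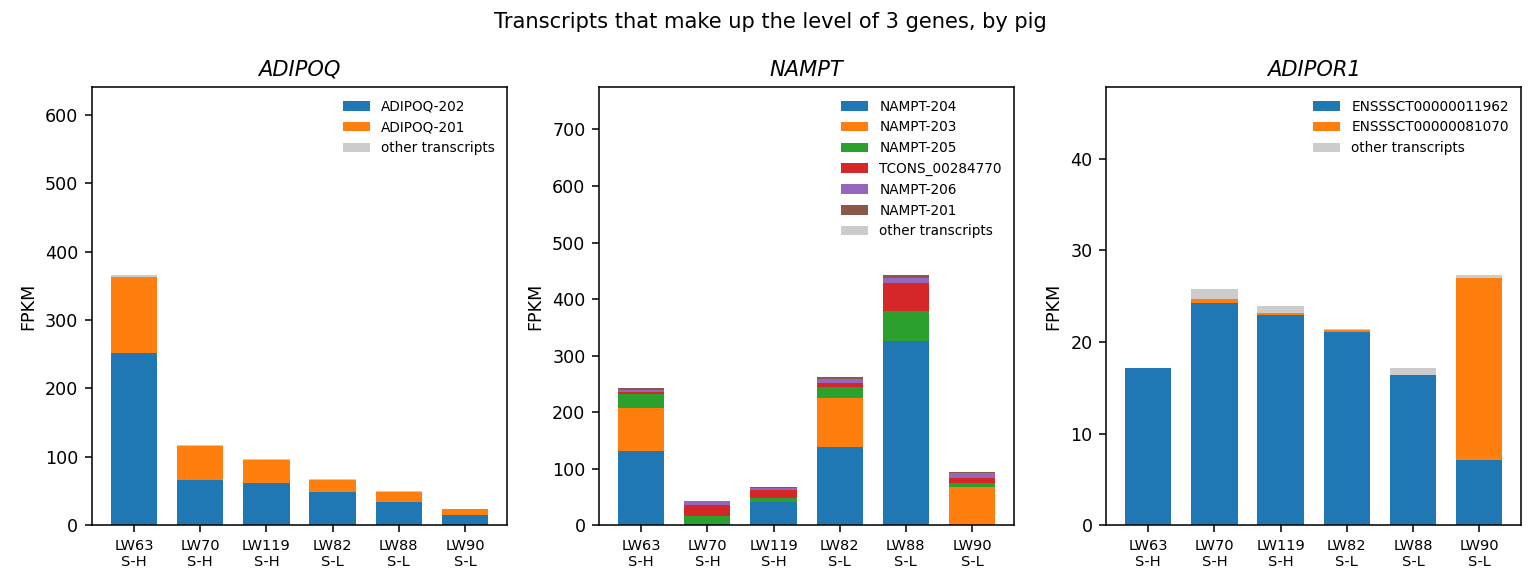
FPKM of the transcripts of ADIPOQ, NAMPT and ADIPOR1 in each pig, stacked to the level of the gene. ADIPOQ-202 is the larger part of ADIPOQ in all pigs, the bars of NAMPT differ mostly in NAMPT-203 and NAMPT-204, and ENSSSCT00000081070 makes up most of ADIPOR1 in LW90 alone.

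Part of the fat cell markers were higher in S-H. Of the 15 adipocyte markers listed, 14 were in the table and tested (CIDEA was not), all 14 had a higher mean log2 level in S-H, and 6 passed, namely PLIN1, FABP4, CIDEC, SCD, DGAT2 and LGALS12. The groups did not overlap for 9 of the 14 and overlapped for LPL, PNPLA2, PLIN4, GPD1 and ADIG. Their median log2 fold change was 1.49, none of the 14 was at 0 in every pig, and their summed level was 586 to 1384 FPKM in S-H and 427 to 532 in S-L. PLIN1, the perilipin that coats fat droplets, was at 56.8, 23.3 and 21.2 FPKM in LW63, LW70 and LW119 and 12.4, 8.04 and 3.92 in LW82, LW88 and LW90. FABP4, the fatty acid carrier of fat cells, was at 239 to 564 FPKM in S-H and 127 to 196 in S-L. The part of this difference in the levels of ADIPOQ, LEP and RBP4 was not tested. The count of passing markers was 6 with all pigs, 3 without LW63, 10 without LW119 and 2 without LW90.

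The level of each member was also taken relative to the 14 adipocyte markers, as its log2(FPKM + 0.1) minus their mean log2(FPKM + 0.1) in the same pig. On this relative scale S-H minus S-L was 0.39 for ADIPOQ, 0.28 for LEP and 0.63 for RBP4, and the groups overlapped for each. It was −1.25 for CFD, −1.01 for ADIPOR2, −1.48 for ADIPOR1, −1.71 for CDH13, −2.44 for LEPR and −2.82 for NAMPT. The subtracted marker mean was itself 1.51 higher in S-H, so a gene at one level in both groups would lie at −1.51 on this scale. All S-H pigs lay below all S-L pigs for those 6 of the 10 members, as they did for 65.1% of all tested genes, and nothing is read from that order. RETN was at −0.45 with overlap, a value set by the pseudocount in 5 pigs.

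**Figure D4:**
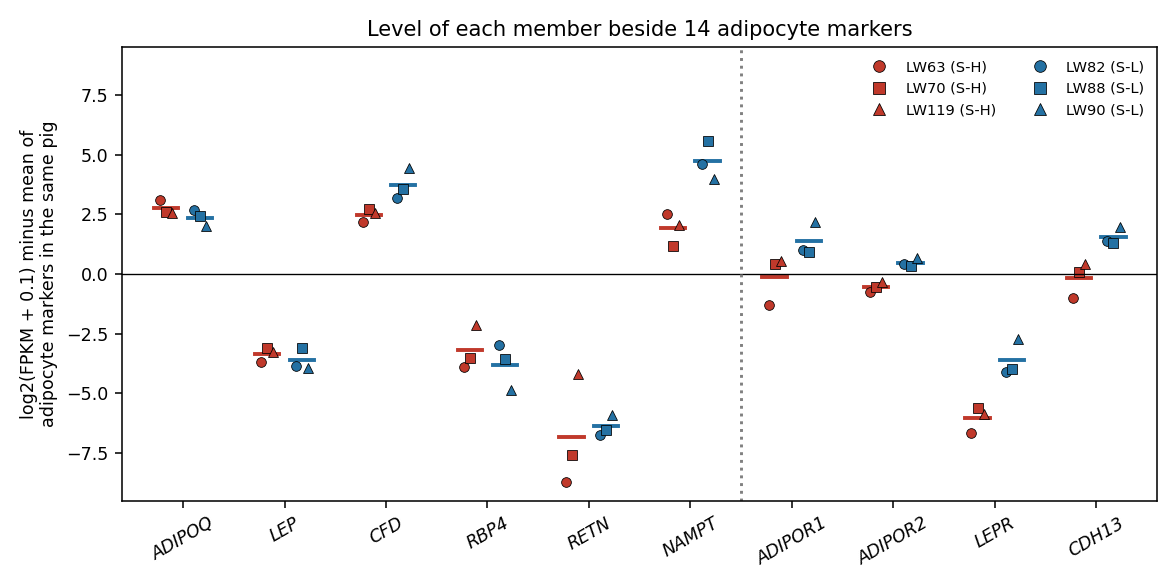
Level of each member minus the mean level of 14 adipocyte markers in the same pig (both as log2(FPKM + 0.1)), with 1 point per pig. ADIPOQ, LEP and RBP4 overlap between the groups. The marker mean is 1.51 higher in S-H, which moves every gene down by that much in S-H, and 65.1% of all tested genes lie lower in every S-H pig on this scale, as CFD, NAMPT and the 4 receptors do.

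The summed FPKM, which is not a depth, lay between 638536 (LW119) and 846661 (LW82), with 44552 to 48568 transcripts above 0. Of 10 skeletal muscle fibre markers 5 were in the table and 0 passed, with CKM, the muscle creatine kinase, at 1985 to 3939 FPKM. ACTA1, the actin of muscle fibres, was at 448 to 895 FPKM in S-H and 859 to 1731 in S-L (log2 fold change −0.97, SE 0.37, limma adjusted p = 0.584). TNNT3 was also lower in S-H, at −0.51. The other 3 fibre markers were higher, at 0.21 for CKM, 0.34 for MYH7 and 0.81 for DES, and the median was 0.21. The summed level of the 5 was 7874 to 12289 FPKM in S-H and 7654 to 11349.9 in S-L, and none was at 0 in every pig. Among the 9 endothelial markers, only CLDN5, a tight junction protein of vessels, passed as higher in S-H, at 22.2 to 29.7 FPKM against 3.77 to 12.6 in S-L. The median log2 fold change of the 9 was 0.28, with 8 above 0, CDH5 at 0.03 and VWF at −0.26. Their summed level was 134 to 151 FPKM in S-H and 83.1 to 123 in S-L, while their mean log2 level overlapped between the groups. None of the 6 fibro-adipogenic progenitor, 8 macrophage, 6 smooth muscle and 2 blood markers tested passed, and before adjustment 1 of them was below 0.05 in limma.

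Genes that work beside the members were read from the same fit. Of 19 other adipokines tested, 0 passed, 3 were below 0.05 before adjustment in limma, and the median log2 fold change was 0.27. C1QTNF6, a relative of adiponectin, was at 0.450, 0.577 and 1.60 FPKM in LW63, LW70 and LW119 against 0.305, 0.305 and 0.0995 in LW82, LW88 and LW90, without overlap, and did not pass (log2 fold change 1.42, SE 0.50). Of 11 other adipokine receptors tested, KLB, a co-receptor that some endocrine FGF signals need, passed as higher in S-H, and the median was 0.05, with INSR, the insulin receptor, at a log2 fold change of −0.39. KLB was at 8.26 FPKM in LW63, 4.25 in LW70 and 6.40 in LW119, against 0.992 in LW82, 0.945 in LW88 and 0.349 in LW90 (log2 fold change 2.95, SE 0.41, limma adjusted p = 0.0785).

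Among the genes of adiponectin secretion and signalling 19 were tested, 0 passed as higher and 1 as lower, and the median was 0.11. The 1 gene was PPARGC1A, the coactivator that drives the genes of mitochondria, at 10.01, 22.4 and 15.1 FPKM in LW63, LW70 and LW119 and 25.5, 76.0 and 43.7 in LW82, LW88 and LW90. The groups did not overlap, with a log2 fold change of −1.54 (SE 0.41, limma adjusted p = 0.532). It no longer passed without LW63 (−1.25), LW88 (−1.15) or LW90 (−1.54). Of the genes of leptin signalling 0 of 16 tested passed, none was below 0.05 before adjustment in limma, and the median was 0.09. LEPROT, which shares its promoter region with LEPR and acts on leptin receptor traffic, was at 14.1 to 18.7 FPKM in S-H and 9.42 to 13.9 in S-L, the opposite order to LEPR, and did not pass (log2 fold change 0.51, SE 0.25, limma adjusted p = 0.616).

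Around the other ligands, 0 of 8 tested genes of the alternative complement pathway passed (median 0.23) and 0 of 9 tested genes of retinol transport (median 0.32), with none below 0.05 before adjustment in limma. In these lists C3, the central complement protein, had a log2 fold change of −0.78, CFP (properdin) of 0.46 and ALDH1A1, which makes retinoic acid, of 0.66. TTR, the blood partner of RBP4 made by the liver, was listed at 0 in all pigs. Around NAMPT, 1 of 10 tested genes of NAD synthesis and use passed (median 0.22). It was CD38, an enzyme that consumes NAD, at 0.805, 0.628 and 1.18 FPKM in LW63, LW70 and LW119 against 0.237, 0.144 and 0.210 in LW82, LW88 and LW90 (log2 fold change 1.68, SE 0.36, limma adjusted p = 0.471). CD38 was thus higher in every S-H pig, but at these low levels it fell short of the threshold with a pseudocount of 1 (log2 fold change 0.64).

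**Figure D5:**
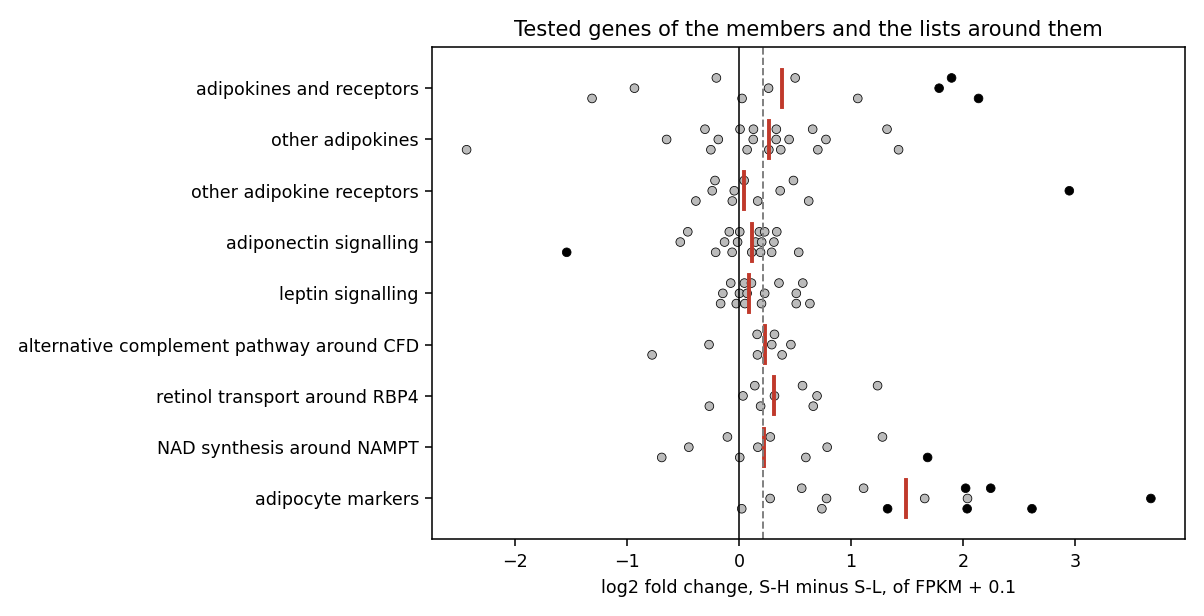
Log2 fold change of S-H against S-L for the tested genes of each list, with 1 point per gene, black where it passed, a red bar at the median of each list and a dashed line at the median of all tested genes. The adipocyte markers are shifted furthest, with a median of 1.49, while the medians of the other lists plotted lie between 0.05 and 0.38 and that of all tested genes is 0.21.

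The genes whose pattern over the 6 pigs was most like a member's were found by Pearson's r of log2(FPKM + 0.1) among tested genes with a symbol and a mean of at least 1 FPKM, 9468 of them for most members and 9469 for LEPR and RETN, which lie below that mean. Since 6 points that share the same libraries are few, the values are a description. For ADIPOQ they were CIDEC (0.997), a fat droplet protein, ACAA1 (0.995) and CCNI (0.994), and for LEP they were NF2 (0.995), IDH1 (0.993) and ARHGEF25 (0.990). For RBP4 they were ASAP3 (0.998), CD200 (0.997) and PPP1R16B (0.995), and for CFD HS6ST1 (0.991), FIBIN (0.976) and CCL26 (0.958). RETN, which rests on 1 pig, was most like COL5A2 (0.992), FLNA (0.987) and INTS2 (0.986). NAMPT was most like VEZT (0.985), UBE3A (0.982) and RANBP10 (0.981). Among the receptors, ADIPOR1 was most like ZNF106 (0.986), ADIPOR2 most like CREBL2 (0.996), LEPR most like CASQ1 (0.981) and CDH13 most like CTDSPL (0.968). The adipocyte marker CIDEC, which headed the list of ADIPOQ, was at 55.2, 18.7 and 14.7 FPKM in S-H and 8.77, 6.81 and 3.63 in S-L, in the same order of pigs as ADIPOQ.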

How the data were processed

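LD muscle RNA of 6 pigs was measured in 1 library each. The authors prepared strand-specific libraries, aligned the reads with Hisat2 and quantified transcripts with StringTie, and deposited FPKM values for 83119 transcripts. The 21104 Ensembl transcripts without a symbol were deposited in TPM, as found from the values, and were multiplied by 1 factor per pig (0.639 to 0.847) to give FPKM. No scaling between libraries was added. Since no read counts entered the work, the depth behind a value is unknown and no counting interval is given. Precision is the spread between 3 pigs per group.

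The rows that share a gene ID were summed. Gene type came from RefSeq of Sscrofa11.1. Protein-coding genes with a mean of at least 0.1 FPKM entered a fit of limma 3.58.1 (variance trend, R 4.3.3) to log2(FPKM + 0.1), with Benjamini-Hochberg adjustment over all tested genes. Fold changes on this scale understate those of low genes. Single values were tested by exact two-sided permutation (scipy 1.17.1). On simulated data for this gene comparison, 196 of 200 genes changed by 3 on the log2 scale were recovered, and 83 unchanged genes passed among 12834.

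The members and gene lists were chosen with earlier results of these data known. Named genes were all members, every list gene that passed or else the 2 with the smallest p, the first 2 markers of each cell type and those that passed, and the 3 genes most like each member, of which some are given only in counts and some are not reported here. Alternatives were other pseudocounts, minimum levels, scalings, variance models, gene sets and summing rules, and each pig left out. Sequences were not used here.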

Additional observations from a re-analysis of the deposited data

How the results depend on the processing

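No paired analysis was possible because the 2 groups hold different pigs whose labels carry no shared numbers. With 175 genes passing of all tested, the count was 78 with a pseudocount of 1 and 264 on TPM, and 88 (without LW90) to 263 (without LW82) with 1 pig left out. Of these 175 genes 150 were higher and 25 lower in S-H, which became 82 and 56 under size factors, 69 and 61 under quantile normalization and 249 and 15 on TPM. The 3 passing members became 1 (LEP) with no minimum level and 1 (LEP) with the highest transcript in place of the sum, and 1 to 3 with 1 pig left out: NAMPT alone without LW63 and LEP alone without LW90. The 503 passing transcripts became 227 with a pseudocount of 1 and 181 with a minimum mean of 1 FPKM. Direction turned for CFD without LW63 (−0.0068, in a range up to 0.50 with 1 pig left out), for ADIPOR1 under size factors (−0.19), quantile normalization (−0.12) and without LW70 (−0.09), LW119 (−0.04) or LW88 (−0.14, in a range up to 0.20), and for LEP relative to the adipocyte markers with a pseudocount of 1 (−0.17). Of the lists, the passing adipocyte markers became 3 with the highest transcript and 2 to 10 with 1 pig left out, the 1 adiponectin signalling gene became 0 with the highest transcript and in 3 of the 6 fits with 1 pig left out, and the 1 NAD gene became 0 with a pseudocount of 1, a minimum mean of 1 FPKM or the highest transcript and 2 on TPM or without LW82. The 0 passing genes of the other adipokines became 1 without LW63, LW70, LW119 or LW82. Among the markers, 0 also became 1 for the macrophage list without LW63, the progenitor list without LW70 and the muscle fibre list without LW119. The cause of these changes was not tested. FPKM carry no depth, so low values such as those of RETN, LEPR and LEP cannot be given a counting error.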
